A study of Mus musculus with 217 samples.

Results

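The 10 genes described here are receptors (Notch1, Notch4), ligands (Dll4, Dll1, Jag1, Jag2) and target genes (Hey1, Hey2, Hes1) of the Notch pathway, together with the arterial marker Efnb2. They were chosen by name from the 52550 genes of the count tables, with no threshold on their values, and all 10 had counts. The study isolated ribosome-bound mRNA from endothelial cells (ECs) of the brain, lung and heart of mice given lipopolysaccharide (LPS), a bacterial cell wall component, and asked how the EC profile of each organ changes during systemic inflammation. All groups came from adult C57BL/6J mice with the genotype Cdh5CreERT2/+; Rpl22HA/+, called RiboTagEC: the Cre recombinase is driven by the promoter of Cdh5 (VE-cadherin), and after tamoxifen (5 mg by gavage, 4 doses on alternate days, from 4–6 weeks of age) the cells that carry it make the ribosomal protein Rpl22 with an HA tag. ECs of arteries, capillaries and veins are therefore pooled in each library. Mice received 10 mg/kg LPS by intraperitoneal injection and organs were taken 6, 24, 48, 72 or 168 hr later; the 0 hr mice received PBS.

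Notch signaling acts between neighboring cells: a Delta-like or Jagged ligand on one cell binds a Notch receptor on the next, the receptor is cut, and its intracellular part enters the nucleus, joins the DNA-binding protein RBPJ and switches on targets of the Hes and Hey families. In blood vessels, Dll4 and Notch1 restrain sprouting, and the same pathway sets and maintains arterial identity, of which Efnb2 (ephrin B2) is a classical marker. Notch4 is found largely in ECs, and Jag1 can oppose Dll4 at the same receptors during sprouting.

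Promoter sequences from RefSeq (GRCm38.p6, 250 bases before and 50 after the start of the gene) were matched to 8 of the 10 genes, in 9 entries. The targets Hey1 and Hes1 had no entry and were not searched. The one shown is that of Hey2, a repressor of the Hes and Hey family, because it was the single entry of the 9 that held the core of the RBPJ binding motif, and because Hey2 was the gene that went to 0 counts in lung ECs at 6 hr. It lies at chr10:30842734-30843033 and is printed on the minus strand, the strand of the gene, with the core TGGGAA or its reverse complement TTCCCA in capitals.
Hey2: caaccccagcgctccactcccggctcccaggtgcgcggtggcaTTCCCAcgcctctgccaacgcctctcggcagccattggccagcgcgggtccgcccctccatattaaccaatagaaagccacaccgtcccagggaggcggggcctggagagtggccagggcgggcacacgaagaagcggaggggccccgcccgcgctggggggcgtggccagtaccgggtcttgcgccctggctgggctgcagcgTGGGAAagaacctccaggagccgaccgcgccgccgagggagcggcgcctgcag
Both copies were part of the longer motif CGTGGGAA, which contains the core: the sense copy spanned positions −5 to 3 and the reverse copy −207 to −200 relative to the start. Searched on both strands, TGGGAA occurred in 25.6% of 32851 promoters and CGTGGGAA in 0.734%, while 2 or more copies of CGTGGGAA occurred in 0.0122% (4 promoters). The motifs CACGTG and CACNAG, which Hes and Hey proteins can bind, occurred in 7.15% and 42.5% of promoters. CACGTG was in none of the 9 entries, and CACNAG was in the entries of Notch1, Dll4, Dll1 and Efnb2. A match describes letters in this window and was not tested as a binding site.

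Of 98 libraries, 18 had under 3% of their reads on genes and were left out, which left 28 of brain, 28 of heart and 24 of lung with 284457 to 43417945 counts on genes (median 21254102). Groups held 4 to 6 libraries apart from lung at 24 hr, which held 2. Sequencing batches are not labelled, so 4 patterns in the names of the deposited count tables were used as library series; series 3 was the set left out, series 1 had libraries at every time, series 2 at 0 to 72 hr and series 4 at 24 to 168 hr. As a check of the labels, the median log2 CPM of 16 genes known to respond to LPS was read in each library (counts scaled to a common library size with TMM, prior count 2, so that 0 counts read −3.35). In the heart this median was 3.33 to 4.04 at 0 hr and 10.21 to 11.32 in 4 of the 5 libraries at 6 hr, but 4.28 in the library labelled 6 hr replicate 5. In the brain it was 1.70 to 2.64 at 0 hr and 7.53 to 9.19 at 6 hr, but 2.50 in the library labelled 6 hr replicate 6. The lung library labelled 6 hr replicate 4 read 5.36, between the 0 hr range (3.05 to 4.72) and the other 6 hr libraries (6.86 to 8.00), and had 284457 counts and 3760 genes detected. These 3 are the libraries of series 1 at 6 hr, 1 per tissue, and their names carry no animal number. That they came from 1 mouse is inferred from the shared series and time, and they are called the 6 hr mouse of series 1 below. The 6 hr calls are given with and without it, a choice made after seeing the data. The heart library labelled 72 hr replicate 1 read 3.87 against 6.93 to 7.78 in the others of its group. Lung 6 hr replicates 1 and 2 had 2678119 and 2745503 counts with 11248 and 7473 genes detected, so the 6 hr lung group held 1 library of full depth.

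**Figure D1:**
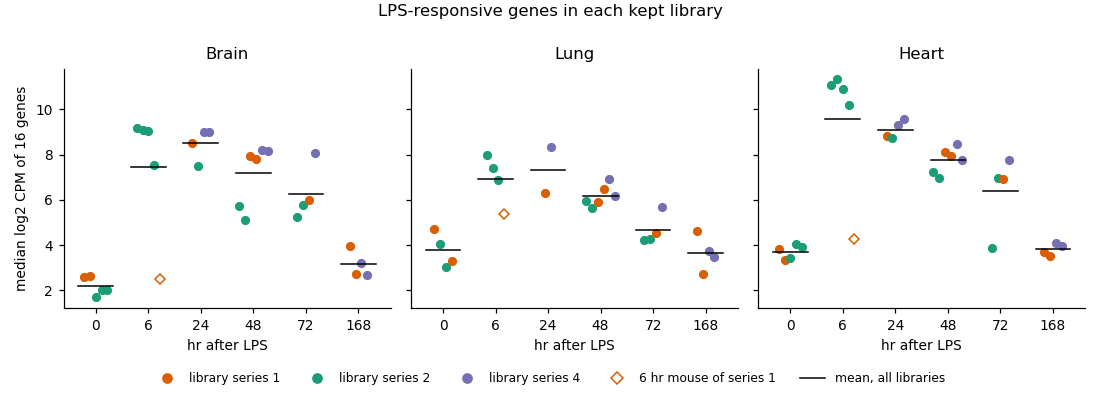
Median log2 CPM of 16 LPS-responsive genes (vertical axis) in each kept library against hr after LPS (horizontal axis), by tissue; color gives the library series, open diamonds the 6 hr mouse of series 1, and lines the mean of all libraries. The diamonds sit at 2.50 in brain, 5.36 in lung and 4.28 in heart, below every other 6 hr library of the same tissue.

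The summed level of 15 pan-EC markers was 4201–8506 CPM in brain, 14644–25987 in lung and 17024–18808 in heart at 0 hr. Libraries also held mRNA of other cells of the organ: neuron markers in brain (1618–6976 CPM at 0 hr), lung epithelium markers in lung (6774–10793) and cardiomyocyte markers in heart (4448–9595), each far below these values in the other tissues. With bulk mRNA, fewer cells of a type and less RNA per cell cannot be told apart. The pan-EC sum itself was lower at 6 hr, at 5585–8642 in the heart without the 6 hr mouse of series 1 (19223 in that mouse), at 2317–4640 in the brain (5392 in that mouse) and at 446–13959 over the 4 lung libraries. The log2 ratio of the mean sums at 6 and 0 hr, without that mouse, was −1.43 in heart, −0.86 in brain and −1.60 in lung.

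At 0 hr, brain libraries held less of 9 of the 10 genes than lung and heart libraries. Levels per length (log2 CPM per kb of exon, mean ± SD) put Hey1 first in the brain (4.12 ± 0.23, n = 5) and in the lung (7.35 ± 0.34, n = 4), and Dll4 first in the heart (6.10 ± 0.23, n = 5). In the brain, Efnb2 (3.25 ± 0.29), Hes1 (3.24 ± 0.71), Jag2 (3.01 ± 0.39), Notch4 (2.97 ± 0.51) and Jag1 (2.83 ± 0.40) followed Hey1 without differing beyond their spread. Below them came Dll4 (2.37 ± 0.42), and the lowest were Notch1 (1.14 ± 0.53), Hey2 (0.85 ± 0.58) and Dll1 (0.00 ± 0.36). In the heart, Notch4 (5.74 ± 0.23) and Hey1 (5.51 ± 0.12) came after Dll4 and were within each other's spread. Efnb2 (5.23 ± 0.36), Hes1 (4.96 ± 0.44) and Jag2 (4.81 ± 0.24) formed the middle of the order, and Notch1 (3.95 ± 0.20), Jag1 (3.48 ± 0.42) and Dll1 (3.28 ± 0.21) the lower end. In the lung, Hes1 (5.83 ± 0.69), Notch4 (5.61 ± 0.66), Dll4 (5.51 ± 0.35), Efnb2 (5.29 ± 1.22) and Dll1 (5.05 ± 0.78) were neighbors within their spread, below Hey1, and Jag2 (4.36 ± 0.55), Notch1 (3.69 ± 0.53) and Jag1 (3.67 ± 0.34) followed. Hey2 was the lowest in heart (−0.09 ± 0.45) and lung (−0.46 ± 1.28).

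The pairwise test of the tissues at 0 hr (edgeR quasi-likelihood, adjusted p under 0.05) called 9 members lower in brain than in lung, against 64.3% of all genes called in either direction, and the same 9 lower than in heart, against 54.8%. The largest differences were those of Dll1 between brain and lung (log2 difference −5.25, SE 0.35, adjusted p = 1.68e-08) and of Dll4 between brain and heart (−3.75, SE 0.26, adjusted p = 1.06e-08). The smallest called were those of Jag1, −0.94 against lung and −0.72 against heart. Hey2 was the exception, 0.95 and 0.91 in brain relative to lung and heart (adjusted p = 0.12 and 0.10). Beside these, 13 of 15 pan-EC markers were lower in brain than in lung (median −1.63) and 12 of 15 lower than in heart (median −2.27), 1 higher; their part in the members' differences was not tested. Between lung and heart, where 61.1% of genes were called, 3 members differed, all higher in lung: Dll1 by 1.90 (SE 0.31), Hey1 by 1.89 (SE 0.22) and Hes1 by 0.73 (SE 0.25, adjusted p = 0.019). The call of Hes1 did not hold without heart 0 hr replicate 1 (0.64) or 2 (0.60).

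In the heart at 6 hr, the arterial marker Efnb2 and the target Hey1 were below every 0 hr library in 4 of the 5 libraries. Hey1 (ENSMUSG00000040289, chr3:8663359-8667256, minus strand), a transcriptional repressor and direct Notch target, read 7.29, 7.24, 7.36, 7.03 and 7.18 log2 CPM at 0 hr. At 6 hr it read 1.62, 2.00, 0.60 and 3.33 in replicates 1 to 4 and 7.45 in the library labelled replicate 5. The first 4 lay below every 0 hr library and the last above them all. In linear units the 4 libraries averaged 4.56 ± 3.73 CPM (SD, n = 4) against 149 ± 12.6 CPM (SD, n = 5) at 0 hr. With all libraries Hey1 fell by 2.32 on the log2 scale (SE 0.90, adjusted p = 0.041), a call lost without any one of heart 0 hr replicates 1, 3, 4 and 5 or 6 hr replicates 1 to 4 (−2.47 to −1.84). Without the 6 hr mouse of series 1 it fell by 5.30 (SE 0.59, adjusted p = 6.26e-08).

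Efnb2 (ENSMUSG00000001300, chr8:8617434-8661242, minus strand), the ligand of the venous receptor Ephb4, read 7.57, 7.78, 8.04, 8.50 and 8.14 log2 CPM in heart at 0 hr. At 6 hr it read 4.54, 4.94, 3.45 and 5.30, and 8.34 in the library labelled replicate 5. Only that library overlapped the 0 hr range. The log2 fold change was −1.85 (SE 0.57, adjusted p = 0.013) with all libraries and −3.51 (SE 0.27, adjusted p = 2.89e-10) without the mouse, the smallest adjusted p among the 10 genes. Hey2 (ENSMUSG00000019789, chr10:30832359-30842801) read 1.65 to 2.77 at 0 hr and 1.65, 1.26, −0.26, 1.34 and, in replicate 5, 2.4 at 6 hr. Hes1 (ENSMUSG00000022528, chr16:30064384-30067796), a target in many cell types, read 5.22 to 6.32 at 0 hr and 4.85, 4.55, 4.76, 5.59 and, in replicate 5, 6.69. Neither passed the test with all libraries (−0.68 and −0.48, adjusted p = 0.15 and 0.25), while both fell without the mouse, Hey2 by 1.24 (SE 0.37, adjusted p = 0.0058) and Hes1 by 1.14 (SE 0.30, adjusted p = 0.0023).

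**Figure D2:**
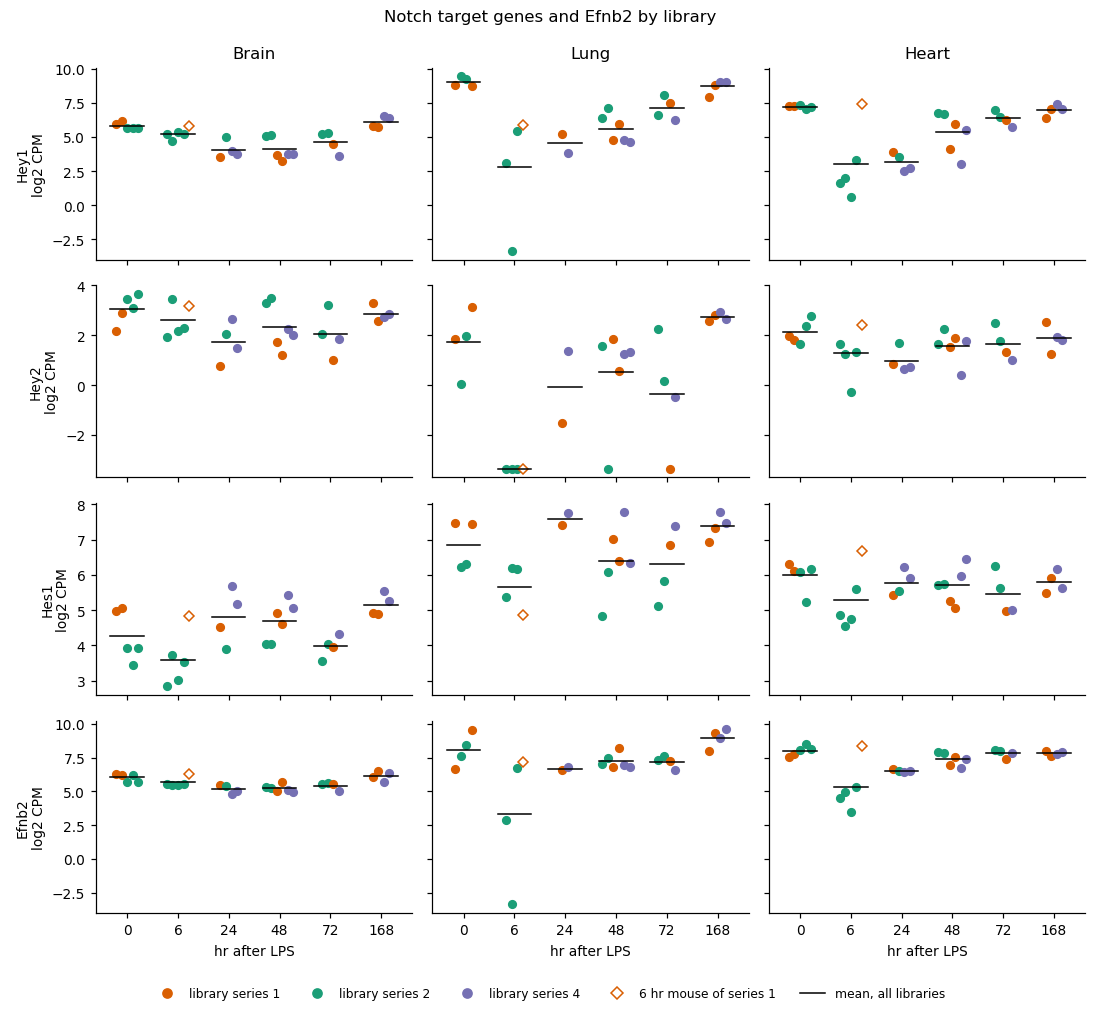
Log2 CPM (vertical axis, its own range per gene) of Hey1, Hey2, Hes1 and Efnb2 in each library of brain, lung and heart against hr after LPS (horizontal axis); colors give the library series, open diamonds the 6 hr mouse of series 1, lines the mean of all libraries, and −3.35 is 0 counts. In heart, Hey1 lies at 0.60–3.33 in the 4 other 6 hr libraries and at 6.40–7.45 at 168 hr.

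The ligands did not move together in heart at 6 hr. Jag2 (ENSMUSG00000002799, chr12:112907819-112929776), a Jagged ligand, read 7.22 to 7.80 log2 CPM at 0 hr and 4.58, 4.66, 4.54 and 6.02 at 6 hr, with 7.83 in the library labelled replicate 5. Dll4 (ENSMUSG00000027314, chr2:119325784-119335962), the main Delta-like ligand of arterial ECs, read 7.83 to 8.36 at 0 hr and 7.02, 7.04, 7.13, 7.35 and, in replicate 5, 8.14 at 6 hr. All 4 other 6 hr libraries lay below the 0 hr range for both genes. Jag2 fell by 1.54 (SE 0.48, adjusted p = 0.014) with all libraries and by 2.57 (SE 0.39, adjusted p = 5.47e-06) without the mouse. Dll4 fell by 0.62 (SE 0.22, adjusted p = 0.024), or by 0.90 (SE 0.21, adjusted p = 0.000712) without the mouse; the first call was lost without heart 0 hr replicate 3 (−0.50) or 6 hr replicates 1, 2 or 3 (−0.59 to −0.55).

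Dll1 and Jag1 were the members that rose. Dll1 (ENSMUSG00000014773, chr17:15367354-15376872), a Delta-like ligand known for arterial maintenance and for the conversion of monocytes, read 5.13, 5.24, 5.65, 5.49 and 5.26 log2 CPM at 0 hr. At 6 hr it read 7.66, 7.55, 6.23 and 6.27, each above the 0 hr range, and 5.57 in the library labelled replicate 5, inside it. It rose by 1.36 (SE 0.29, adjusted p = 0.0011) with all libraries and by 1.57 (SE 0.28, adjusted p = 4.98e-05) without the mouse. Jag1 (ENSMUSG00000027276, chr2:137081456-137116644) read 5.54, 5.92, 6.00, 6.71 and 5.96 at 0 hr and 7.54, 7.48, 6.70, 7.27 and, in replicate 5, 5.97 at 6 hr. Replicates 3 and 5 at 6 hr lay below replicate 4 at 0 hr, so the groups overlapped. Jag1 rose by 0.90 (SE 0.20, adjusted p = 0.0018), or by 1.07 (SE 0.19, adjusted p = 5.18e-05) without the mouse. The receptors had the smallest changes of the 10 genes once the mouse was left out. Notch1 (ENSMUSG00000026923, chr2:26457903-26516663) read 7.50 to 8.03 at 0 hr and 6.76 to 7.54 in the 4 other libraries at 6 hr, a log2 change of −0.28 (adjusted p = 0.26) with all libraries and −0.63 (SE 0.17, adjusted p = 0.0022) without the mouse. Notch4 (ENSMUSG00000015468, chr17:34564268-34588503) gave −0.54 (adjusted p = 0.093) and −0.79 (SE 0.26, adjusted p = 0.012). Exons of Notch1, Dll4 and Dll1 share 1482, 214 and 867 bases with genes on the opposite strand, and whether counting used the strand is not given in the sources used here.

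In all, 6 of 10 members were called in heart at 6 hr (2 higher, 4 lower), when 42.8% of all genes were called, and 10 of 10 (2 higher, 8 lower) without the mouse, when 58.4% of genes were called. All 10 were also called within series 2 alone, against 53.6% of genes, which holds the 4 other 6 hr libraries and 3 of the 0 hr ones. Without the mouse, 5 members had every 6 hr library below every 0 hr library and 1 had every one above; over all genes these shares were 19.2% and 17.9%. The median log2 change of the pan-EC markers in the same fit was −1.46, with 12 of 15 lower and 1 higher. Beside that median, Hey1, Efnb2 and Jag2 fell by more, the other members called lower fell by less, and Dll1 and Jag1 rose. The part of the pan-EC change in the members' values was not tested.

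**Figure D3:**
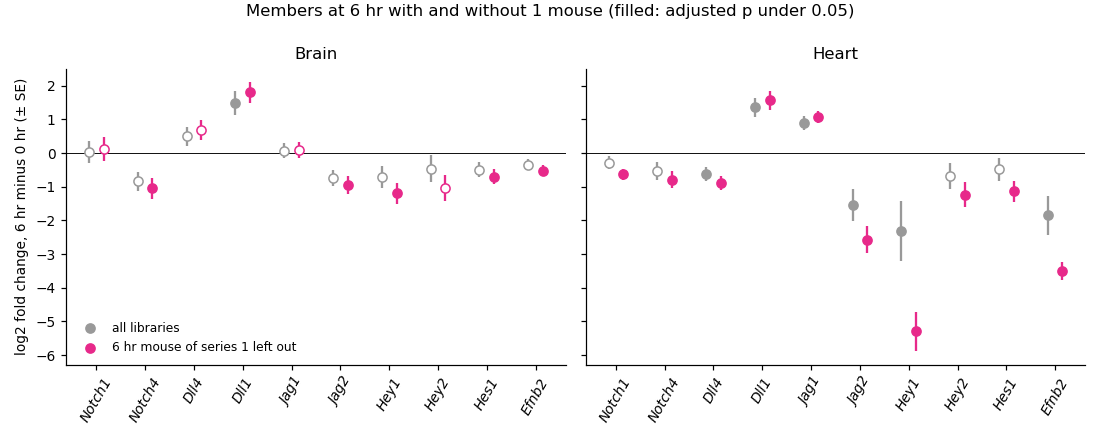
Log2 fold change at 6 hr against 0 hr with its SE (vertical axis) for each of the 10 genes in brain and heart, with all libraries (gray) and without the 6 hr mouse of series 1 (pink); filled points have an adjusted p under 0.05. In heart all 10 pink points are filled, from −5.30 for Hey1 to 1.57 for Dll1.

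**Figure D4:**
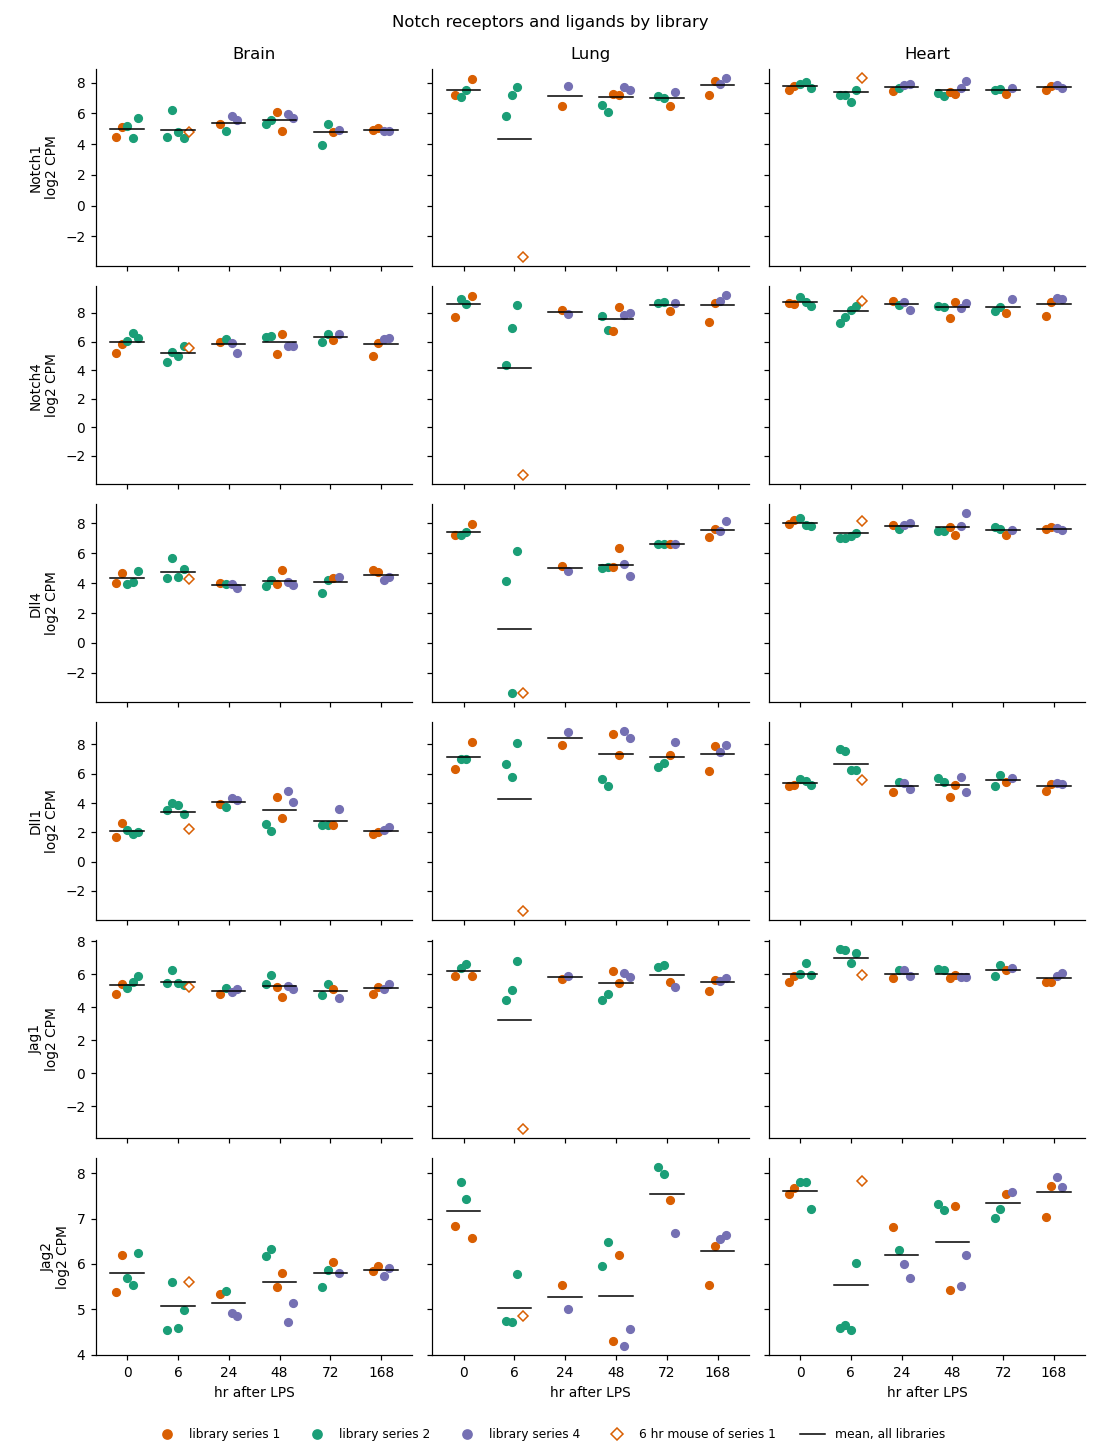
Log2 CPM (vertical axis, its own range per gene) of the receptors Notch1 and Notch4 and the ligands Dll4, Dll1, Jag1 and Jag2 in each library against hr after LPS (horizontal axis), by tissue; colors give the library series, open diamonds the 6 hr mouse of series 1, lines the mean of all libraries, and −3.35 is 0 counts. Dll1 lies at 6.23–7.66 in the 4 other heart libraries at 6 hr and at 4.75–5.41 at 24 hr.

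Hey1 was below its 0 hr range in every heart library at 24, 48 and 72 hr (of all genes, 14.4%, 2.81% and 1.16%). It still read 3.89, 3.51, 2.49 and 2.71 log2 CPM at 24 hr, all below the 0 hr range (−3.79, SE 1.03, adjusted p = 0.019), a call lost without heart 24 hr replicate 1 or 2 (−3.98 to −3.63 over all libraries left out in turn) but held without the 6 hr mouse of series 1 (−3.63, SE 0.55, adjusted p = 5.6e-05). Efnb2 read 6.65, 6.51, 6.46 and 6.48 and Jag2 6.81, 6.30, 6.00 and 5.68 at 24 hr, likewise below their 0 hr ranges. Their log2 changes were −1.56 and −1.34 (adjusted p = 0.082 and 0.084) with all libraries, and −1.33 (SE 0.26, adjusted p = 0.00077) and −1.21 (SE 0.38, adjusted p = 0.022) without the mouse. Thus 1 of 10 members was called at 24 hr, where 16.2% of genes were called, and 3 of 10 without the mouse, where 26% were. The mouse is at 6 hr and not in this comparison. It enters comparisons of later times with 0 hr only through the shared fit (spread, series term and scaling). At 24 hr Dll1 read 4.75–5.41, and Jag1 5.75–6.27, inside its 0 hr range. Both fell between 6 and 24 hr, by 1.58 (SE 0.33, adjusted p = 0.012) and 0.86 (SE 0.24, adjusted p = 0.037), when 4.74% of genes were called. The fall of Dll1 missed the threshold without heart 24 hr replicate 2 (−1.59). That of Jag1 missed it without any one of heart 6 hr replicates 1 and 2, 24 hr replicates 1, 2 and 5 and 72 hr replicate 5 (−0.84 to −0.74). Without the mouse, Hey1 rose from 6 to 24 hr by 1.67 (SE 0.58) and from 24 to 48 hr by 2.36 (SE 0.50, adjusted p = 0.012), and Efnb2 rose by 2.18 (SE 0.29) and 0.87 (SE 0.23, adjusted p = 0.037). In these fits 30.6% of genes were called between 6 and 24 hr, when Dll1, Jag1 and Jag2 also passed, and 4.55% between 24 and 48 hr.

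At 48 hr the heart libraries divided by series. Hey1 ranged from 3.01 to 6.78 with a median of 5.72, and the 2 libraries of series 2 (6.78 and 6.71) were the highest of the 6. Jag2 ranged from 5.42 to 7.32 at that time, with 7.32 and 7.18 in series 2 and 7.28 in 1 library of series 1. Within series 2, Hey1 at 48 hr differed from 0 hr by −0.45, and within series 1 by −2.24. No member was called in heart at 48, 72 or 168 hr, when 4.19%, 0.275% and 0% of genes were called; at 168 hr, 680 of 16024 genes had an unadjusted p under 0.05, DESeq2 called 2 and limma-voom 0. At 168 hr Hey1 read 6.40, 7.03, 7.45 and 7.03 and Efnb2 8.00, 7.60, 7.79 and 7.89, and both genes overlapped their 0 hr ranges.

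In the brain, Dll1 rose at 6 to 48 hr, and Hey1 and Efnb2 fell at 24 and 48 hr. Dll1 read 1.66, 2.63, 2.15, 1.91 and 2.02 log2 CPM at 0 hr, and 3.53, 4.00, 3.85, 3.28 and, in the library labelled replicate 6, 2.26 at 6 hr. At 24 hr it read 3.94, 3.72, 4.36 and 4.24, above every 0 hr library, as did 9.17% of all genes. It was higher by 1.48 at 6 hr (SE 0.35, adjusted p = 0.0096; 1.80, SE 0.31, without the mouse), by 1.52 at 24 hr (SE 0.38, adjusted p = 0.011) and by 1.32 at 48 hr (SE 0.35, adjusted p = 0.017). The 24 hr call was lost without brain 24 hr replicate 2 (1.43), and the 48 hr call without brain 0 hr replicate 1 (1.18) or 48 hr replicate 3 (0.995). At 48 hr Dll1 ranged from 2.08 to 4.84, and the series 2 libraries were at 2.58 and 2.08. The difference at 48 hr was 0.30 within series 2 and 1.56 within series 1. In CPM, Dll1 stayed a low gene in the brain, 4.23 ± 1.16 (SD, n = 5) at 0 hr and 12.8 ± 2.83 (SD, n = 4) at 6 hr without the mouse.

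Hey1 in the brain read 5.94, 6.18, 5.64, 5.69 and 5.69 log2 CPM at 0 hr and 5.19, 4.72, 5.33, 5.21 and, in the library labelled replicate 6, 5.77 at 6 hr. It read 3.51, 4.98, 3.99 and 3.77 at 24 hr and from 3.23 to 5.13 (median 3.72) at 48 hr. Every library at 24, 48 and 72 hr lay below the 0 hr range (of all genes, 8.01%, 2.24% and 2.44%). The fall at 6 hr passed the test only without the mouse (−1.20, SE 0.32, adjusted p = 0.012; −0.71, adjusted p = 0.23, with it). Hey1 fell by 1.53 at 24 hr (SE 0.37, adjusted p = 0.010), a call lost without brain 24 hr replicate 1 (−1.25), and by 1.47 at 48 hr (SE 0.32, adjusted p = 0.0042). At 72 hr it read 5.19, 5.27, 4.46 and 3.59 (−1.10, adjusted p = 0.081; −1.18, adjusted p = 0.023, without the mouse, against 4.93% of genes), and at 168 hr 5.80, 5.76, 6.51 and 6.41. The rise from 72 to 168 hr was 1.78 (SE 0.39, adjusted p = 0.0073), in a contrast in which 8.29% of genes were called, and it was lost without brain 72 hr replicate 5 (1.49). The fall was smaller within series 2 (−0.70 at 24 hr and −0.57 at 48 hr) than within series 1 (−2.55 and −2.60), with 1 to 3 libraries on each side.

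Efnb2 had little spread in the brain. It read 6.27, 6.21, 5.72, 6.24 and 5.72 log2 CPM at 0 hr, 5.48, 5.40, 4.79 and 5.05 at 24 hr and 4.94 to 5.70 (median 5.16) at 48 hr. All libraries at 24 and 48 hr were below all at 0 hr (of all genes, 8.01% and 2.24%). Efnb2 fell by 0.71 at 24 hr (SE 0.19, adjusted p = 0.019) and by 0.67 at 48 hr (SE 0.17, adjusted p = 0.010), and rose again by 0.71 from 72 to 168 hr (SE 0.20, adjusted p = 0.030). The 24 hr call was lost without brain 0 hr replicate 1 or 24 hr replicates 1, 2 or 4 (−0.76 to −0.59), and the later rise without any one of 14 libraries (0.43 to 0.71), both near the threshold. At 6 hr its 4 other libraries read 5.45–5.58, and the library labelled replicate 6 read 6.30. Without the mouse Notch4 (−1.05), Jag2 (−0.95), Hes1 (−0.70) and Efnb2 (−0.52) also fell at 6 hr, with adjusted p between 0.015 and 0.047. Dll4 gave 0.69 (adjusted p = 0.12) in that fit, Notch1 0.13, Jag1 0.08 and Hey2 −1.03 (adjusted p = 0.080).

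In the brain 1 of 10 members was called at 6 hr against 6.44% of all genes, or 6 of 10 without the mouse against 14.3%; 3 were called at 24 hr against 11.2% and 3 at 48 hr against 14.2%. None was called at 72 hr (3.53% of genes) or 168 hr (0%, with 828 of 19234 genes at an unadjusted p under 0.05, 2 calls by DESeq2 and 0 by limma-voom). Pan-EC markers at 6 hr counted 7 lower and 2 higher of 15, and at 48 hr 1 lower and 2 higher. Their summed level was 5891–8680 CPM at 48 hr and 4201–8506 at 0 hr, and the part of EC content in the members' values was not tested. Of 9 leukocyte markers 6 were higher and 1 lower at 48 hr. Their sum was 29.7–123 CPM at 0 hr, and their part in the level of Dll1 was not tested. The median sum of fibroblast markers was 1269 CPM at 0 hr, 4768 at 24 hr and 3244 at 48 hr. From 0 to 24 hr that of neuron markers went from 5195 to 1303. Oligodendrocyte markers went from 4287 to 748 and astrocyte markers from 2357 to 2473. The test at 24 hr called 2 of 6 fibroblast markers higher, 1 of 5 oligodendrocyte markers lower and no neuron or astrocyte marker. The part of these cells in the members' values was not tested.

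In the lung, Hey1 had the largest fall among the members with counts in both groups. It read 8.84, 9.45, 9.23 and 8.72 log2 CPM at 0 hr and 3.08, −3.35 (0 counts), 5.47 and, in the library labelled replicate 4, 5.86 at 6 hr, the last from 2 counts. It read 5.25 and 3.81 at 24 hr, 4.60 to 7.12 (median 5.34) at 48 hr, 6.58, 8.10, 7.46 and 6.23 at 72 hr and 7.95, 8.83, 9.00 and 9.05 at 168 hr. All libraries from 6 to 72 hr were below the 0 hr range, and at 168 hr the groups overlapped. Of all genes, 7.49%, 9.83%, 2.07% and 2.88% had every library below that range at 6, 24, 48 and 72 hr. Hey1 fell by 4.98 at 6 hr (SE 0.88, adjusted p = 0.0020; −5.27, SE 0.92, without the mouse) and by 3.08 at 48 hr (SE 0.66, adjusted p = 0.018). The 48 hr call was lost without lung 0 hr replicate 2 or 3 or 48 hr replicate 3 (−3.41 to −2.98 over all libraries left out in turn). With the 3 lung libraries of under 12000 detected genes left out, which leaves 1 library at 6 hr assumed to vary like the other groups, the fall at 6 hr was 4.00 (SE 0.92, adjusted p = 0.031), and Hey1 was the 1 member called, against 1.01% of genes. In that fit Hey1 also fell at 24 hr, by 3.76 (adjusted p = 0.0051).

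Hey2 was at 0 counts in all 4 lung libraries at 6 hr, after 0.03, 1.84, 1.98 and 3.13 log2 CPM at 0 hr. At 3 counts over the group, 0.0877 CPM, it was at least 48.2-fold lower than its mean of 4.23 CPM at 0 hr. This bound rests on replicate 3: over the other 3 libraries the floor was 1.25 CPM and the bound 3.38-fold, and the floor of single libraries ran from 0.0943 to 86.7 CPM. It passed the edgeR test (adjusted p = 0.031), and 0.041 without the mouse, but not the tests of DESeq2 or limma-voom, nor edgeR with the lung libraries of few genes left out or without lung 0 hr replicate 3 or 6 hr replicates 1, 2 or 3. The fitted fold change of a gene at 0 in a whole group depends on the prior count and is not given. At 48 hr 1 of 6 and at 72 hr 1 of 4 libraries were also at 0, and at 168 hr it read 2.57 to 2.94.

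Dll4 in the lung read 7.22, 7.21, 7.41 and 7.96 log2 CPM at 0 hr and 4.17, 6.16 and, in 2 libraries, 0 counts at 6 hr. It read 5.15 and 4.83 at 24 hr, 4.46 to 6.38 (median 5.06) at 48 hr, 6.61 to 6.64 at 72 hr and 7.09 to 8.14 at 168 hr. Each library from 6 to 72 hr lay below the 0 hr range (shares of all genes as given for Hey1). The change was −2.60 at 6 hr (SE 0.75, adjusted p = 0.039) and was not called without the mouse (−2.37, adjusted p = 0.083) or without lung 0 hr replicates 2, 3 or 4 or 6 hr replicate 1 (−2.64 to −2.33). It was −2.46 at 24 hr and −2.16 at 48 hr (adjusted p = 0.56 and 0.12), and these passed once the libraries of few genes were left out, at −2.56 (SE 0.54, adjusted p = 0.019) and −2.24 (SE 0.35, adjusted p = 0.0009), in fits that called 0.671% and 2.83% of genes. Jag2 read 6.83, 7.80, 7.42 and 6.58 at 0 hr and 4.75, 4.72, 5.78 and 4.86 at 6 hr, the last from 1 count (−2.55, SE 0.59, adjusted p = 0.011; −2.57 without the mouse). At 48 hr it ranged from 4.18 to 6.48, below the 0 hr libraries, and was called in the fit without the libraries of few genes (−1.55, SE 0.37, adjusted p = 0.021). Efnb2 read 6.67 to 9.54 at 0 hr, where its spread was widest (SD 1.22, n = 4), and changed by −2.68 at 6 hr (adjusted p = 0.067). Dll1, Jag1, Hes1, Notch1 and Notch4 gave values from −1.80 to −0.08 at 6 hr with adjusted p from 0.15 to 0.96.

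In the lung 4 of 10 members were called at 6 hr, against 4.83% of all genes, or 3 without the mouse, against 3.95%. At 6 hr the median log2 change over all genes was −0.42. No member was called at 24 hr (0.375% of genes), 1 at 48 hr (0.598%), and none at 72 hr (0.193%) or 168 hr (0.0117%). Pan-EC markers in the lung at 6 hr counted 4 lower of 15 with a median of −1.39, and leukocyte markers 3 higher of 10, from a sum of 296–424 CPM at 0 hr to 0–4324 at 6 hr. Markers of other organs were higher in the same libraries: 4 of 8 cardiomyocyte markers (median 2.93; sum 59–166 CPM at 0 hr and 81–929 at 6 hr), 2 of 8 neuron markers (2.19), 1 of 6 astrocyte markers (3.30) and 1 of 3 oligodendrocyte markers (3.38). Without the mouse these counts were 2, 1, 1 and 0. Their part in the members' values was not tested.

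The difference between tissues in the response to LPS was tested itself, over 150 combinations of member, tissue pair and time, of which 12 passed. Between brain and lung at 6 hr, when 13.3% of genes were called, 4 members differed, all with the lower change in lung: Dll4 by 2.95 (SE 0.57, adjusted p = 0.000327), Hey1 by 4.13 (SE 1.04, adjusted p = 0.0050), Efnb2 by 2.4 (SE 0.79, adjusted p = 0.034) and Hey2, through its 0 counts. The same 4 passed without the mouse, when 13.7% of genes were called. Dll4 differed again at 48 hr (1.94, SE 0.50, adjusted p = 0.015) against 3.54% of genes. Between lung and heart at 6 hr, against 18.1% of genes, Dll4, Dll1, Jag1, Hey1 and Hey2 had the lower change in lung. Dll4 differed by −1.78 (SE 0.56), Dll1 by −1.80 (SE 0.67) and Hey1 by −2.84 (SE 1.04). For Jag1 the difference was −1.57 (SE 0.46, adjusted p = 0.013), and −1.59 (SE 0.48, adjusted p = 0.014) without the mouse. Without it Jag1 and Hey2 were the members called, against 19.7% of genes, and the value of Hey1 turned to 0.32 (SE 0.71, adjusted p = 0.88). Dll4 differed between lung and heart at 24 hr (−2.31, SE 0.65, adjusted p = 0.043) and 48 hr (−1.90, SE 0.50, adjusted p = 0.034), against 1.67% and 1.13% of genes. The libraries of 1 replicate number at a time were also left out, in all tissues and at all times at once. Such a cut takes libraries from many groups, so a lost call does not show which libraries it rests on. The 2 Dll4 calls at 24 and 48 hr each held in 1 of 7 cases (−2.34 to −2.07 and −2.11 to −1.53). At 6 hr those of Dll4 (−3.57 to −1.44) and Dll1 (−3.09 to −1.31) held in 3, that of Jag1 (−2.80 to −1.09) in 5 and that of Hey1 (−4.90 to 0.37) in 2. Between brain and lung, that of Efnb2 at 6 hr (2.13 to 4.68) held in 3. With the lung libraries of few genes left out, Hey2 was the member still called at 6 hr for both pairs, against 1.42% and 1.07% of genes. That cut leaves 1 lung library at 6 hr, replicate 3, so both Hey2 calls there rest on 0 counts in a single library. With all lung libraries, limma-voom called Hey2 for neither pair at 6 hr (adjusted p = 0.101 for brain and lung, 0.15 for lung and heart). Libraries of the same mouse by name, in different tissues, deviated together (median r 0.262 over 74 pairs, against −0.0585 over 292 pairs of other mice). With the mouse as a block in place of the series, 10 combinations passed, and the calls of Dll4 between brain and lung at 48 hr (1.83), of Dll4 between lung and heart at 24 and 48 hr (−2.14 and −1.81) and of Dll1 (−1.30) and Hey1 (−0.92) between lung and heart at 6 hr were lost. The comparisons of a tissue share its 0 hr libraries, and the depth of the 6 hr lung libraries was lower than that of the other tissues.

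Between brain and heart no member differed with all libraries at 6, 24, 48, 72 or 168 hr, when 0.636%, 0.327%, 0.463%, 0.318% and 0% of genes were called (at 168 hr, 508 genes had an unadjusted p under 0.05, DESeq2 called 28 higher and 29 lower, and limma-voom 0). Without the 6 hr mouse, Hey1 (4.33, SE 0.69, adjusted p = 1.41e-05), Efnb2 (2.89, SE 0.65, adjusted p = 0.0020) and Jag2 (1.74, SE 0.50, adjusted p = 0.022) fell less in brain at 6 hr, against 6.36% of genes. Dll1 gave 0.01 (SE 0.51) there. At 24 hr Dll1 differed by 2.44 without the mouse (SE 0.65, adjusted p = 0.049), against 0.768% of genes. With all libraries the other combinations called no member: brain against lung at 24, 72 and 168 hr (3.85%, 0.377% and 0.0273% of genes) and lung against heart at 72 and 168 hr (0.154% and 0.0182%). Without the mouse, Dll4 (2.19, SE 0.64) and Hey1 (2.61, SE 0.81) differed between brain and lung at 24 hr, against 4.2% of genes, and Dll4 (2.13, SE 0.49) and Jag2 (1.72, SE 0.46) at 48 hr, against 3.58%. At 24 and 48 hr the mouse, taken at 6 hr, enters only through the shared fit.

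Jag1 and Dll4 are ligands of the same receptors, and their ratio can be read within a library without scaling. The log2 ratio of Jag1 to Dll4 counts (0.5 added to each) was −1.24 ± 0.58 (SD, n = 4) in lung, −2.02 ± 0.52 (SD, n = 5) in heart and 1.05 ± 0.32 (SD, n = 5) in brain at 0 hr: Dll4 had the higher count in lung and heart, Jag1 in brain. In lung it was 2.17 ± 2.93 at 6 hr (n = 3), 0.82 ± 0.34 at 24 hr (n = 2), 0.27 ± 0.97 at 48 hr (n = 6), −0.68 ± 0.65 at 72 hr and −2.08 ± 0.20 at 168 hr (n = 4 each). The library labelled lung 6 hr replicate 4 had 0 counts of both genes and gives no ratio. The other 3 at 6 hr read 0.30 or more, above the mean at 0 hr, and the highest, 5.55, had 0 counts of Dll4. In heart it was −0.34 ± 1.09 at 6 hr (n = 5), with −2.17 in the library labelled replicate 5 and −0.42 to 0.52 in the others, and −1.80 ± 0.37 at 24 hr (n = 4). In brain it was 0.82 ± 0.30 at 6 hr (n = 5). In an exact two-sided permutation test without the mouse, the lung value at 6 hr gave p = 0.0571, the smallest possible with 3 against 4, the lung value at 48 hr p = 0.0286 and the heart value at 6 hr p = 0.0159, the smallest possible with 4 against 5 (0.0238 with the mouse). After Benjamini-Hochberg adjustment over 15 comparisons none passed, the lowest adjusted p by the exact permutation test being 0.214, or 0.143 with the mouse. The smallest p that the group sizes allowed in this test ran from 0.00433 to 0.133. With 15 comparisons even 0.00433 could not pass on its own, so this result does not show that the ratio stayed the same.

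**Figure D5:**
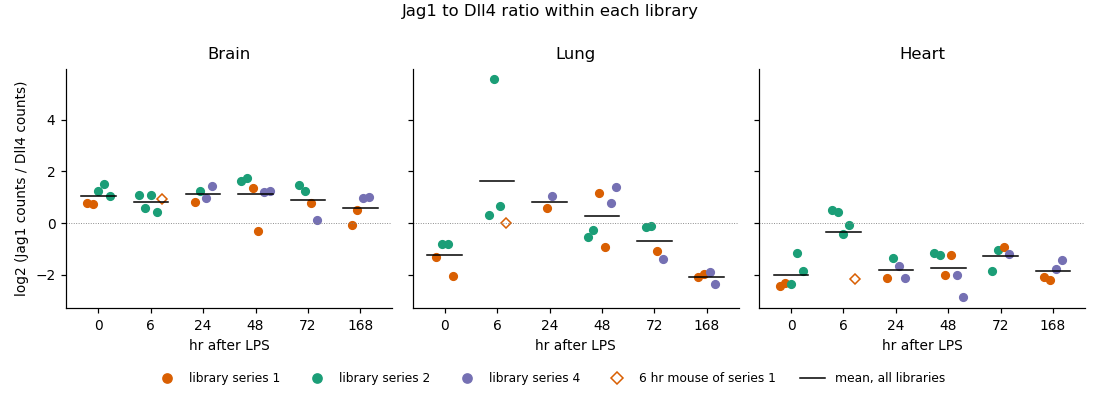
Log2 ratio of Jag1 to Dll4 counts in each library (vertical axis; above 0, more Jag1) against hr after LPS (horizontal axis), by tissue; colors give the library series, open diamonds the 6 hr mouse of series 1 and lines the mean of all libraries. Of the lung libraries at 6 hr, 3 range from 0.30 to 5.55 and the diamond at 0.00 had 0 counts of both genes; those at 0 hr average −1.24.

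Other genes of the pathway, from fixed lists, were counted in the same fits. In heart at 6 hr 42.8% of all genes were called, and 58.4% without the mouse. In heart at 6 hr, 4 of 5 glycosyltransferases and related enzymes that modify Notch were lower (median of the list −0.92, all genes −0.05), led by Lfng (−1.99, SE 0.77) and Mfng (−1.09, SE 0.31), and 4 without the mouse (median −1.29). Of 9 genes for receptor cleavage, 3 were higher and 1 lower, and 3 higher and 3 lower without the mouse: the γ-secretase subunit Psen2 rose by 3.33 (SE 0.46, adjusted p = 2.18e-05; 3.75, SE 0.29, without the mouse), the sheddase Adam17 rose by 0.84, and the subunit Aph1a fell by 1.26. Psen2 was also higher in heart at 24 and 48 hr (1.86 and 2.09) and in brain at 6, 24 and 48 hr (0.63, 0.59 and 0.54). Of 12 inhibitors and trafficking genes, 1 was higher (Dtx3l, 1.40) and 4 lower, including the endocytic inhibitor Numb (−1.48), and 2 were higher and 5 lower without the mouse. Among 5 other targets tested in heart, 2 were lower and 1 higher, and 4 lower and 1 higher without the mouse; the feedback inhibitor Nrarp fell by 1.55 (SE 0.47, adjusted p = 0.012), or by 2.67 (SE 0.35) without the mouse. Of 7 genes of the RBPJ complex and its coactivators, 1 was higher (Kat2b, 0.60) and 2 lower (Maml3, −1.18, and Snw1, −0.51), and of 3 other receptors and ligands tested 1 was lower, with the same counts without the mouse.

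Of 19 other arterial EC genes tested, more were called lower than higher at 6 hr in each tissue. In heart at 6 hr, 11 of 19 were lower and 1 higher (median −1.39), and without the mouse 16 lower and 1 higher (median −2.11, against −0.08 over all genes). The 3 named by size were Stmn2 (−2.48), the semaphorin and VEGF co-receptor Nrp1 (−2.01) and the matrix protein Fbln5 (−1.98); without the mouse they were at −4.12, −3.13 and −3.18. In brain 6 of 19 were lower at 6 hr (median −0.82), led by the transcription factors Sox18 (−2.07) and Sox17 (−1.70) and by the phosphatase Alpl (−1.56), and 11 lower and 1 higher without the mouse (median −1.17). In lung 6 of 19 were lower at 6 hr (median −1.96), or 4 without the mouse, led by Stmn2 (−4.77), the kinase Bmx (−3.98) and Fbln5 (−3.22). At 24 hr 8 of 19 were lower in heart and 6 in brain, and at 48 hr 0 in heart and 5 in brain. Of all genes, 7.11% in heart and 4.66% in brain were called lower at 24 hr, and 1.11% and 6.12% at 48 hr. At 6 hr these shares were 20.3% in heart, 2.23% in brain and 2.27% in lung, with all libraries. Of 15 pan-EC markers 3 were lower in brain at 24 hr. Venous genes counted 3 higher and 3 lower of 9 in heart, 3 and 3 of 10 in brain and 2 and 2 in lung at 6 hr (3 and 3, 3 and 4, and 2 and 1 without the mouse), and the higher ones included Lcn2 and Selp, which are also among the 16 LPS-responsive genes. Sox18 and Nrp1 are also expressed by other ECs, and pan-EC markers were lower in the same libraries, by the counts given above; their part was not tested.

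Across the 18 tissue and time means, after each tissue's own mean was subtracted, the genes whose log2 CPM followed a member most closely were named by Pearson's r among 6987 other genes whose average level was 4 or more on this scale. For Hey1 they were Rhpn2 (0.972), Pea15a (0.967) and 2700081O15Rik (0.961), and for Efnb2 Tm7sf3, Arhgef3 (0.988 each) and Selenom (0.984). Notch4 was followed by Dpagt1 and Gpx7 (0.987 each), Dll4 by Mkrn2 (0.977) and Notch1 by Sipa1l2 (0.974). For Jag1 the first was Msl2 (0.974), and for Hey2 Rere (0.971) among 6988 genes. Dll1, Jag2 and Hes1 had less close partners, led by Cdr2 (0.931), Mxra7 (0.902) and the transcription factor Foxc1 (0.865). The 18 points of a gene come from the same libraries as those of the member and include the shallow lung libraries at 6 hr, so these values describe likeness in this table only.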

How the data were processed

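Whole-number counts per gene were deposited by the authors, 1 table per sequencing run. Per the submitters' processing notes, reads were aligned to mm10 with STAR 2.4.2 and counted with HTSeq 0.6.1; the annotation release and strand setting are not given in the sources used here. The 217 runs were summed into 98 libraries, and those with under 3% of reads on genes were left out, leaving 80.

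Each tissue was fitted with edgeR 4.0.16 (R 4.3.3; quasi-likelihood, TMM scaling, filterByExpr), with time and library series as terms; tissues at 0 hr and the difference in response to LPS were fitted across tissues. Genes were called at a Benjamini-Hochberg adjusted p of 0.05 over all genes tested. Alternatives used DESeq2 1.42.0, limma 3.58.1 (voom), other filters and scalings, and each library left out. The scripts were tested on simulated data. The labels do not say which libraries came from separate mice, so p-values measure the spread between these libraries. Library series and shared mice were inferred from the names of the count tables, which do not always carry an animal number. For levels, log2 CPM was computed with 1 scaling over the 80 libraries and a prior count of 2, and gene positions and exon lengths are from GENCODE M21 (GRCm38).

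The 10 genes and the lists were chosen with earlier results of these data known. The genes named from the lists were the 3 with the largest change among those called, at an average level of 3 log2 CPM or more; others named were chosen after their values were seen.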

Additional observations from a re-analysis of the deposited data

Results flagged for a closer look

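Of 169 groups of 4 to 6 libraries, 13 held a library whose gap to the nearest other passed Dixon's 95% limit, and chance alone gives about 1 in 20 groups. At 6 hr in brain, replicate 2 stood above the others for Notch1 (6.22 log2 CPM, others 4.39–4.78) and Jag1 (6.26, others 5.21–5.47), and the library labelled replicate 6 for Efnb2 (6.30, others 5.45–5.58). Brain 72 hr replicate 5 was apart for Dll1 (3.56, others 2.49–2.53) and Efnb2 (5.05, others 5.53–5.61), and brain 24 hr replicate 5 for Dll4 (3.65, others 3.94–3.98). In lung, Notch1 had 0 counts (−3.35) in the library labelled 6 hr replicate 4 (others 5.83–7.71), Jag2 read 5.78 in 6 hr replicate 3 (others 4.72–4.86), Hey2 had 0 counts (−3.35) in 48 hr replicate 2 (others 0.55–1.84), and Notch4 read 8.15 in 72 hr replicate 3 (others 8.70–8.78). In heart, Hes1 read 5.22 in 0 hr replicate 4 (others 6.09–6.32), Notch4 7.65 in 48 hr replicate 3 (others 8.34–8.74) and Dll1 4.81 in 168 hr replicate 1 (others 5.29–5.35).

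In the test of the difference between tissues in the response to LPS, 12 combinations passed. Between brain and lung these were Dll4 at 6 hr (2.95) and 48 hr (1.94), Hey1 (4.13), Efnb2 (2.4) and Hey2 (9.33) at 6 hr. Between lung and heart they were Dll4 at 6 hr (−1.78), 24 hr (−2.31) and 48 hr (−1.90), and Dll1 (−1.80), Jag1 (−1.57), Hey1 (−2.84) and Hey2 (−9.07) at 6 hr. The 2 values of Hey2 were fitted against a group at 0 counts, depend on the prior count and are no measure of size. Of all genes, 13.3% and 3.54% were called between brain and lung at 6 and 48 hr. Between lung and heart 18.1%, 1.67% and 1.13% were called at 6, 24 and 48 hr. In the planned settings, Dll4 and Hey1 between brain and lung at 6 hr kept their calls in 8 of 8 and 9 of 9. Dll4 between lung and heart at 24 hr kept its call in 1 of 8. Hey1 between lung and heart was 0.32 without the 6 hr mouse of series 1.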

How the results depend on the processing

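The 56 calls of a member in a comparison gave 1477 pairs of a call and a planned setting. Of these pairs 1338 kept direction and call, 138 lost the call and 1 reversed. Many pairs left out 1 library, in part of a group outside the comparison. Where a value moved, the cause was not tested. Brain gave 7 member calls, and 13 without the 6 hr mouse of series 1, 4 within series 2, 1 within series 1 and 5 to 13 with 1 library left out. Lung gave 5, and 8 with no low-count filter, 3 with all 98 libraries, 0 within series 2 or series 1 alone and 2 to 9 with 1 library left out: 2 without lung 0 hr replicate 3, 3 without lung 0 hr replicate 2 or 6 hr replicate 1, and 9 without 6 hr replicate 3. Heart gave 7, and 13 without the mouse, 13 also without the heart 72 hr library of replicate 1, 12 within series 2, 0 within series 1 and 5 to 13 with 1 library left out. The share of all genes called moved as well, so these shifts are not particular to the members. Without the mouse it went from 42.8% to 58.4% in heart at 6 hr and from 16.2% to 26% at 24 hr. Between 6 and 24 hr in heart it went from 4.74% to 30.6%. At 6 hr it went from 6.44% to 14.3% in brain and from 4.83% to 3.95% in lung. Tissue differences at 0 hr gave 21 of 30, and 14 to 24 over the settings. The tissue by LPS tests gave 12, and 5 with all 98 libraries, 6 without lung libraries of under 12000 genes and 5 to 17 with 1 replicate number left out. Neighboring times gave 4, and 2 without the series term, 2 with all 98 libraries, 11 without the mouse, 9 also without the heart 72 hr library, 0 within series 1 and 2 to 9 with 1 library left out. The Jag1 to Dll4 ratio gave 0 throughout, but no comparison of it could pass on its own at these group sizes. Within series 1, whose 6 hr library is that of the mouse alone, 5 values reversed at 6 hr: Dll4 (0.078), Jag2 (0.25), Hey1 (0.22) and Efnb2 (0.70) in heart, and Dll1 (−0.0281) in brain. Hey1 between lung and heart at 6 hr ranged from −4.90 (without replicate 3) to 0.37 (without replicate 5, reversed) and reversed to 0.32 without the mouse. The settings that leave out libraries by series, genes detected or the mouse were chosen after seeing the data; leaving out series 3 is already the main set of libraries.

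Replicate numbers did not pair the libraries: the median correlation of deviations was 0.0142 over 151 same-numbered pairs and −0.0187 over 735 others. With a replicate block the calls were 5 in brain, 4 in lung, 7 in heart, 23 between tissues at 0 hr, 11 in the tissue by LPS tests and 3 between neighboring times. With the mouse as a block they were 24 between tissues at 0 hr and 10 in the tissue by LPS tests. Depth limits the lung at 6 hr most, where 3 counts are worth 0.0943 to 86.7 CPM in a library; these floors cover counting error only.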
